A study of Mus musculus with 55 samples.

Results

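The genes described here are the replication-dependent histone genes of the mouse, taken as every gene whose symbol carries a cluster histone name (H1f1 to H1f5, H2ac, H2bc, H3c and H4c followed by a number, or the older Hist1 to Hist4 names with an h). Of the 51912 genes in the deposited expression tables, 61 carried such a symbol: 5 of class H1, 17 of H2A, 15 of H2B, 12 of H3 and 12 of H4. Only the deposited symbol was matched, so genes deposited under other symbols were left out. Among those left out are H2aw (older name Hist3h2a) and H2bu2 (older name Hist3h2ba). All 61 were listed in the table of sgMeis2 and sgScramble libraries, and 41 of them among the 15479 genes of the table of PRMK and PRM libraries. Of the 61, 51 lie on chromosome 13, between positions 21715711 and 23934913 of GRCm38, and 10 on chromosome 3, between 96219885 and 96270192.

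The study compared mouse small cell lung cancers grown from gene-edited lung organoids that were injected into the left lung of recipient mice. PRMK tumours stand for guides against Trp53, Rb1 and Kmt2c, which encodes an H3K4 methyltransferase, with Myc expressed from a retroviral vector. PRM tumours carry the same Trp53 and Rb1 guides and Myc vector without the Kmt2c guide. The sgMeis2 and sgScramble samples, whose titles do not say whether they are tumours or cultured cells, both carry the 4 PRMK plasmids. A guide against Meis2 is added in the sgMeis2 group and a scrambled guide in the sgScramble group. Every group thus shares the Trp53 and Rb1 guides and the added Myc. RNA was sequenced in 3 libraries of each of these groups. Peak lists of 2 libraries a group came from open chromatin (ATAC) and from CUT&Tag, in which a tethered transposase cuts DNA next to an antibody target. They cover lung PRMK and lung PRM samples and, for ATAC, H3K4me1 and KMT2C, also liver samples of PRM, known here by that label only. The PRMK RNA samples list no Kmt2c guide among their plasmids, and among the RNA samples only those of PRM name a stranded mRNA kit, which means that library preparation and genotype cannot be told apart. In the PRMK samples for H3K4me2, for H3K4me3 and for KMT2C, the Meis2 guide is listed for replicate 1 and the scrambled guide for replicate 2. Nothing states that replicates came from separate animals, so p-values measure the spread between these samples, which may be technical. In these bulk samples, fewer cells of a type and less RNA per cell cannot be told apart.

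Replication-dependent histone genes supply the H2A, H2B, H3 and H4 of new nucleosomes and the linker histone H1 while DNA is being copied. They sit in clusters, and most lack introns and give mRNAs that end in a stem-loop bound by Slbp in place of a poly(A) tail. A preparation that selects on poly(A) captures little of such mRNAs. Some members, among them H1f2 and H2bc4, are known to give polyadenylated transcripts as well in cells that have stopped dividing.

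The stretch of 250 bases just before the gene start is shown for the members on which the expression results turn, so that their promoter elements can be compared. H1f2, H3c15 and H4c9 had the highest mean CPM of their class in PRMK libraries. H2bc8 stands for class H2B, since H2bc4 and H2bc21 have no entry in the promoter table. H2bc7 and H4c12 were added after their values were seen, H2bc7 for the largest fold change in PRMK tumours and H4c12 as a pair to H4c9. All were read from RefSeq promoters of GRCm38.p6 and run 5′ to 3′ on the gene's strand up to the base before the start. Capitals mark TATAAA, which is read by the TATA-binding protein, CCAAT, which is bound by NF-Y, and TTTGCAT, the octamer core bound by Oct-1, or the reverse complement of any of them, which is the same motif on the other strand.
H1f2, chr13:23738557-23738806, plus strand: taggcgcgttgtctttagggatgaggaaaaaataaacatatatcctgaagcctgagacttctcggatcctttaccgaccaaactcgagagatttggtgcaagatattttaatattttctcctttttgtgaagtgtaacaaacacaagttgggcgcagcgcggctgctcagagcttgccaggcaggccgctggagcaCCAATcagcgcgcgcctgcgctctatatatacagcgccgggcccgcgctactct
H2bc8, chr13:23571150-23571399, plus strand: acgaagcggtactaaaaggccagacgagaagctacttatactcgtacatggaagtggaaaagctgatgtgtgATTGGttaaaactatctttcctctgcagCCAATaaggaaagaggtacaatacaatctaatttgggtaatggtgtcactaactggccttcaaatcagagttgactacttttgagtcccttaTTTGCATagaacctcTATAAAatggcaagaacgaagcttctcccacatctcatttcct
H2bc7, chr13:23574208-23574457, minus strand: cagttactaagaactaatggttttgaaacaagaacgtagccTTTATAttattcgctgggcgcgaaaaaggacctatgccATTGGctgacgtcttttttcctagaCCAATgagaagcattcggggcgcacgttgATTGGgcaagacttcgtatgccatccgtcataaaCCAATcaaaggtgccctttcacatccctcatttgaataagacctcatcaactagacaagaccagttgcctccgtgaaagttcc
H3c15, chr3:96239128-96239377, minus strand: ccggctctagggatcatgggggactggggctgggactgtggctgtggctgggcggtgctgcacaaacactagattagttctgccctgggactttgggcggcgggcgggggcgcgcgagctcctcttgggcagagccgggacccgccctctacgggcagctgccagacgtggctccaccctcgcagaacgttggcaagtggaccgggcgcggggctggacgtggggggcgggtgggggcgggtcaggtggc
H4c9, chr13:22041363-22041612, minus strand: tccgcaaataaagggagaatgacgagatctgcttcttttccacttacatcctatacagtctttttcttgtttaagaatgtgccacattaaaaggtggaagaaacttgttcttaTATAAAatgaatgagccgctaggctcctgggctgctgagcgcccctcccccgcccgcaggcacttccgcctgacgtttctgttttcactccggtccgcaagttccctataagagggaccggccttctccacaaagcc
H4c12, chr13:21750554-21750803, minus strand: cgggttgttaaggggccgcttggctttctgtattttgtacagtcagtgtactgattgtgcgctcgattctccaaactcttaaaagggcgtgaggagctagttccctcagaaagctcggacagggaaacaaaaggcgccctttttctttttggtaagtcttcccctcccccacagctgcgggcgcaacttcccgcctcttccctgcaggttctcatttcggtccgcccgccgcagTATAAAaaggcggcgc

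The promoters differed by class. CCAAT on either strand was in 47 of the 57 promoters of the 56 histone genes with an entry (82.5%), against 33.8% of all 32851 promoters. It was in all 5 H1, all 17 H2A and all 14 H2B promoters and in 8 of 10 H3 promoters, but in 3 of 11 H4 promoters (27.3%). TTTGCAT was in 13 of 57 (22.8%), against 4.12% of all promoters. Of those 13, 6 were H2A, 6 were H2B and 1 was H4, with none of the H1 or H3 promoters. TATAAA on either strand was in 28 of 57 (49.1%), against 12.4% of all promoters. Its 24 copies on the gene's strand lay 10 to 250 bases before the start (median 33), and 14 of them lay between 20 and 60 bases before it. Adjacent histone genes are often transcribed away from each other and can share promoter bases, so these promoters are not independent of one another. H2bc8 held all 3 motifs, with TTTGCAT 58 and TATAAA 43 bases before the start. H2bc7 held 4 CCAAT copies over both strands and H3c15 held none of the 3 motifs. In H4c12 TATAAA lay 16 bases before the start, and in H4c9 it lay 137 bases before it. A match is a run of letters and no evidence that a factor binds there.

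In PRMK tumours the summed histone level was 596.9, 407.7 and 576.1 CPM (counts scaled to the library's size by TMM) in libraries 1 to 3, against 175.2, 88.4 and 159.2 CPM in PRM libraries 4 to 6. All PRMK libraries lay above all PRM libraries, and PRM library 5 was the lowest. The means were 526.9 ± 103.7 CPM in PRMK and 140.9 ± 46.2 CPM in PRM (SD, n = 3 each), a 3.74-fold ratio. The edgeR quasi-likelihood test called none of the 33 members tested at an adjusted p under 0.05, and none of the 13914 genes tested (0.0%). At an unadjusted p under 0.05 it had 18 of 33 members higher in PRMK, where 7.03% of all genes tested were higher, and 0 lower, where 10.1% of all genes tested were lower. The count of 18 was 7 without PRMK library 1 and 7 without PRMK library 3, and 13 to 18 without any other library. Over all genes the count also fell, from 978 of 13914 higher with all libraries. It was 442 of 14288 without PRMK library 1 and 526 of 14263 without PRMK library 3, and 671 to 1896 without any other library. The filter on low counts asks for enough counts in as many libraries as 1 group holds. A member can thus pass through the group where it is high, as H2bc7 did, with 29, 14 and 23 counts in PRMK and 0, 1 and 0 in PRM libraries. The 8 listed members not tested included H2ac8 and H4c6, lower in PRMK by mean CPM, and others such as H2ac7, higher there. The 33 are thus partly selected for a high level in 1 group. DESeq2 called 10 of the 33 higher in PRMK (3.9% of all genes tested) and 0 lower (4.86%). The edgeR likelihood ratio test, which takes less account of the uncertainty of the spread, called 6 members higher, with 1.8% of all genes called higher.

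The edgeR log2 fold change was above 0 for 32 of the 33 members tested, against 48.6% of all genes tested. Over all 41 listed members, 27 had every PRMK library above every PRM library, a pattern found for 14.6% of all listed genes, and 1 member, H4c9, had every PRMK library below every PRM library (13.9%). The ratio of mean CPM was above 1 for 38 of the 41, and the exceptions were H2ac8, H4c6 and H4c9. The median log2 ratio of mean CPM was 1.45 over the 41 members and -0.04 over all 15479 genes. Members outside this table are not counted, and the sources used here do not give the rule by which its genes were listed. With PRM library 4 left out, edgeR called 3 of 35 members tested higher, H2bc8, H3c15 and H4c12, with 1.98% of all genes called higher. Without that library DESeq2 called 15 of 35 (14.0% of all genes), without PRM library 5 it called 9 (5.09%) and without PRM library 6 it called 7 (7.94%). DESeq2 called 2 members without PRMK library 1 (0.916% of all genes), 5 without PRMK library 2 (1.77%) and 2 without PRMK library 3 (1.35%), and H2bc8 and H2bc21 were among the calls each time.

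**Figure D1:**
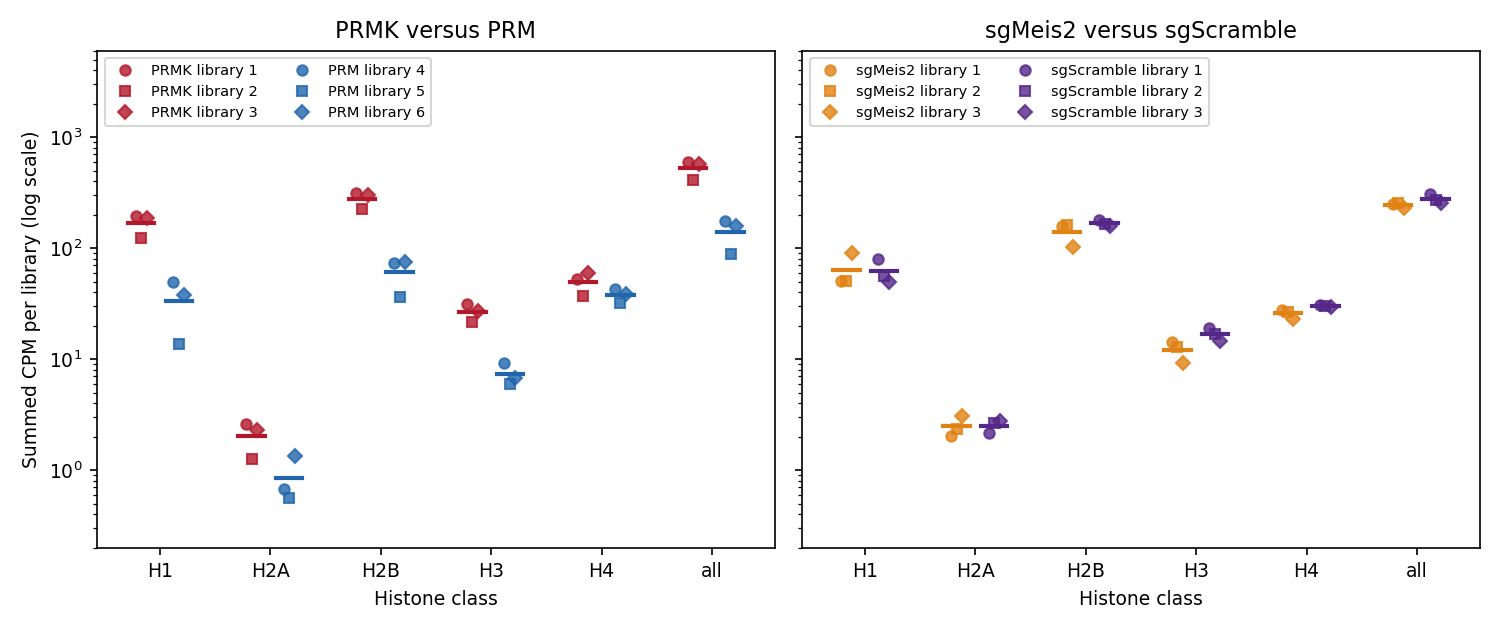
Summed CPM (log scale) of the histone genes of each class and of all classes, per library; points are libraries and bars are group means, with PRMK left of PRM in the first panel and sgMeis2 left of sgScramble in the second, from separately normalized tables. The PRMK points lie above all PRM points for H1, H2B, H3 and all classes summed, and the groups overlap for H2A and H4.

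Class H1, which leaves out the linker histones H1f0 and H1f10, was mostly 1 gene. Class H1 summed to 195.9, 124.2 and 186.5 CPM in PRMK libraries, against 49.6, 13.6 and 37.9 CPM in PRM libraries. H1f2, a linker histone that binds DNA at its entry and exit from the nucleosome, had 192, 122.3 and 182 CPM in PRMK libraries 1 to 3, against 48.6, 11.4 and 36.1 CPM in PRM libraries 4 to 6. Its groups did not overlap, and PRM library 5 was lowest. Its log2 fold change was 2.37 (SE 0.54), with an edgeR adjusted p of 0.192 and a DESeq2 adjusted p of 0.00239. The other listed members of class H1, H1f3, H1f4 and H1f5, had mean levels of 1.2, 1.4 and 0.842 CPM in PRMK. They had 0.431, 0.709 and 0.494 CPM in PRM, and each overlapped between groups.

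The members of class H2A could hardly be measured. Its 4 listed genes summed to 2.61, 1.25 and 2.3 CPM in PRMK libraries, against 0.679, 0.56 and 1.33 CPM in PRM libraries, and the groups overlapped. None of the 4 passed the filter on low counts. H2ac7, which encodes a core H2A, had 24, 9 and 22 counts in PRMK libraries, against 3, 3 and 1 counts in PRM libraries, without overlap. H2ac13, another core H2A gene, had 20, 9 and 10 counts in PRMK libraries, against 1, 5 and 0 counts in PRM libraries, and its groups did not overlap either. H2aw, an H2A gene left out by its symbol, had more reads than these members. It had 519, 370 and 529 counts in PRMK libraries, against 99, 104 and 7 counts in PRM libraries.

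Class H2B carried the largest share of histone reads, with 314.7, 223.9 and 300.4 CPM in PRMK libraries, against 72.9, 36.5 and 74.9 CPM in PRM libraries. H2bc4, a core H2B gene, had 205.7, 157.9 and 204.8 CPM in PRMK libraries, against 46, 15.1 and 57.8 CPM in PRM libraries, so that the lowest PRMK library was above the highest PRM library. Its log2 fold change was 2.26 (SE 0.50), with an edgeR adjusted p of 0.19 and a DESeq2 adjusted p of 0.00206. H2bc8, another core H2B gene, had 20.4, 13.9 and 18.1 CPM in PRMK libraries, against 4.02, 2.3 and 3.38 CPM in PRM libraries. Its 3 PRM libraries lay close together, and with a log2 fold change of 2.43 (SE 0.40) it had the lowest DESeq2 adjusted p of the members, 9.2e-08, beside an edgeR adjusted p of 0.19. H2bc21, known in mouse olfactory neurons as the variant H2BE, had 70.6, 38.1 and 60.2 CPM in PRMK libraries, against 16.7, 15 and 7.65 CPM in PRM libraries. Here the lowest of the PRM libraries was number 6, not 5, the log2 fold change was 2.10 (SE 0.41), and DESeq2 gave an adjusted p of 2.06e-04.

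Of the H2B genes at lower levels, H2bc7 had 29, 14 and 23 counts in PRMK libraries, against 0, 1 and 0 counts in PRM libraries. It was nearly absent from PRM libraries at this depth, and its log2 fold change of 5.14 (SE 1.03) rests on that single count and on the prior count of the fit. H2bc6 had 5.26, 4.17 and 5.34 CPM in PRMK libraries, against 1.15, 2.58 and 1.07 CPM in PRM libraries, with no overlap and a DESeq2 adjusted p of 0.0429. Hist1h2bq and Hist1h2br had counts within 2 of each other in every library, 323 in total for each, so their reads may be shared between copies. All 10 H2B genes tested had log2 fold changes above 0, between 0.93 and 5.14, and 10 of the 12 listed did not overlap.

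Class H3 summed to 31.1, 21.6 and 27.2 CPM in PRMK libraries, against 9.19, 5.94 and 6.76 CPM in PRM libraries. H3c15, a core H3 gene of the smaller cluster on chromosome 3, had 13, 8.66 and 12.6 CPM in PRMK libraries, against 3.24, 0.672 and 1.25 CPM in PRM libraries. The groups did not overlap, and PRM library 4 was highest of its group. The edgeR adjusted p was 0.197 and the DESeq2 adjusted p 0.00266, at a log2 fold change of 2.72 (SE 0.68). H3c4 had 3.9, 2.45 and 3.76 CPM in PRMK libraries, against 0.627, 0.336 and 1.33 CPM in PRM libraries, and a DESeq2 adjusted p of 0.0355. All 9 H3 genes tested had log2 fold changes above 0, between 0.56 and 2.72, and 7 of the 10 listed did not overlap.

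Class H4 was split by its most abundant gene. The class summed to 52.5, 36.7 and 59.7 CPM in PRMK libraries, against 42.8, 31.8 and 38.3 CPM in PRM libraries, and the groups overlapped. H4c9, a core H4 gene, had 23, 19 and 25 CPM in PRMK libraries, against 30, 28.7 and 34.2 CPM in PRM libraries, so that it alone was lower in every PRMK library. At a log2 fold change of -0.47 (SE 0.24), the unadjusted edgeR p was 0.0981 and the adjusted p 0.368, and DESeq2 gave an adjusted p of 0.215, so it was called by neither tool. H4c12 had 9, 5.01 and 8.07 CPM in PRMK libraries, against 3.24, 0.952 and 0.801 CPM in PRM libraries. Its groups did not overlap, and its log2 fold change of 2.13 (SE 0.70) came with a DESeq2 adjusted p of 0.0383. Hist1h4n had 69, 29 and 116 counts in PRMK libraries, against 16, 4 and 2 counts in PRM libraries, and a DESeq2 adjusted p of 0.0338. Of the 10 H4 genes tested, 9 had log2 fold changes above 0, up to 2.80, and H4c9 was the exception.

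**Figure D2:**
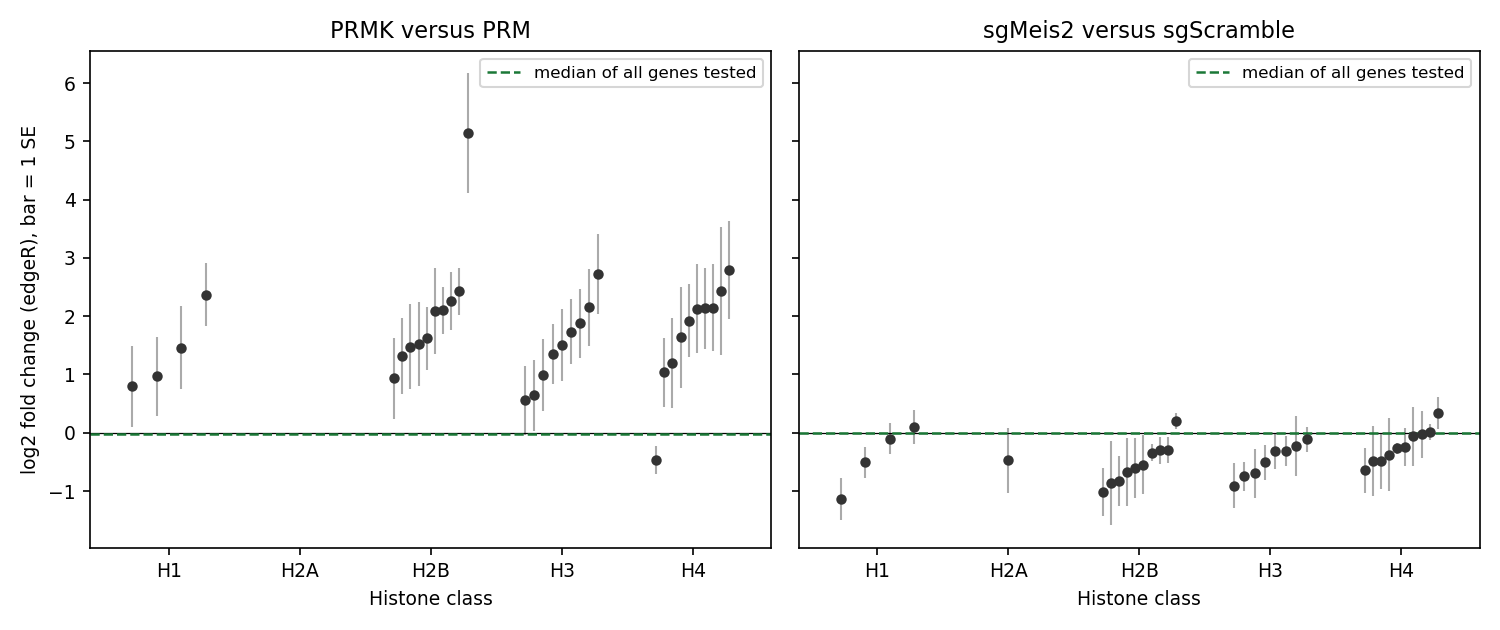
edgeR log2 fold change of each histone gene tested, by class, with bars of 1 SE; the dashed line is the median of all genes tested, in the first panel for PRMK over PRM and in the second for sgMeis2 over sgScramble. In the first panel 32 of 33 genes lie above 0, and in the second 4 of 33 do.

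The difference did not rest on the most abundant genes. Without H2bc4, H1f2, H2bc8, H2bc21 and H4c9, the remaining 36 members summed to 85.1, 56.5 and 85.9 CPM in PRMK libraries, against 29.9, 15.9 and 20.1 CPM in PRM libraries, a log2 ratio of 1.79. With all 41 members it was 1.90. Leaving out each library in turn gave log2 ratios of the sum between 1.66 and 2.09.

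Genes that lie between the histone genes were compared with them. In the span of the listed histone genes on chromosome 13, from 21716412 to 23762386, 6 other genes were tested, 1 of them with a log2 fold change above 0 and 1 with an unadjusted edgeR p under 0.05, and their median was -0.76, against 1.63 for the 30 histone genes tested there. The median was -0.29 for the other 494 tested genes of chromosome 13. Single libraries were set against the mean of the other libraries, in genes of high level. PRM library 5 had the chromosome 13 genes outside the histone set at a median log2 ratio of 0.74. The 4 histone genes of that chromosome at this level had a median of -2.25. The 3 histone genes tested on chromosome 3 had a median log2 fold change of 2.10, against -0.21 for the other 662 tested genes of chromosome 3.

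The genes that transcribe and process histone mRNAs were set beside the histone genes. Slbp, which binds the stem-loop, had 101.5, 110.6 and 100.9 CPM in PRMK libraries, against 52.1, 114.7 and 80.2 CPM in PRM libraries, with overlap and a log2 fold change of 0.34 (SE 0.30). Npat, the coactivator of histone gene transcription, had 52.8, 54.3 and 50.8 CPM in PRMK libraries, against 75.2, 100.5 and 69 CPM in PRM libraries. It lay lower in every PRMK library, with a log2 fold change of -0.63 and an edgeR adjusted p of 0.237. Hinfp, a transcription factor of H4 genes, and Casp8ap2, a protein of the histone locus body, had log2 fold changes of -0.51 and -0.46. Of the 22 genes tested in this list, edgeR and DESeq2 called 0. At an unadjusted edgeR p under 0.05, 0 were higher and 3 lower in PRMK (Npat, Cpsf3 and Cstf2), where 7.03% of all genes tested were higher and 10.1% lower. The list's median log2 fold change was -0.43, against -0.02 for all genes tested.

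Other lists related to histones and the cell cycle gave these counts, and edgeR called no member of any of them. They are read against the same shares of all genes tested, 7.03% higher and 10.1% lower at an unadjusted edgeR p under 0.05, and 3.9% higher and 4.86% lower by DESeq2. Of 20 histone chaperones tested, 0 were higher and 5 lower in PRMK at an unadjusted p under 0.05, DESeq2 called 2 lower, and the median log2 fold change was -0.25. Of 12 replication-independent histone genes, which are expressed outside S phase and have polyadenylated mRNAs, 3 were higher and 0 lower at an unadjusted p under 0.05, and the median was 0.40. DESeq2 called 2 of the 12 higher, both of which encode the variant H3.3 or a close relative: H3f3b had 1905, 1695 and 1973 CPM in PRMK libraries, against 1020, 907.4 and 1027 CPM in PRM libraries, and H3f3c had a log2 fold change of 0.84. H1f0, the linker histone of resting cells, had 2353, 2028 and 2509 CPM in PRMK libraries, against 1351, 183.2 and 777 CPM in PRM libraries, without overlap, and was not called. Of 27 S phase genes, 1 was higher and 3 lower at an unadjusted p under 0.05, DESeq2 called 1 higher and 1 lower, and the median was -0.21. Pcna, the sliding clamp of DNA polymerase, had a mean of 574.3 ± 25.8 CPM in PRMK and 584.4 ± 152.6 CPM in PRM (SD, n = 3 each). Of 11 genes of growth arrest, 1 was higher at an unadjusted p under 0.05 and by DESeq2, 0 were lower, and the median was 0.32.

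RNAs of other kinds that carry no poly(A) tail could be read for 2 genes only. Rn7sk, the 7SK RNA, had a log2 fold change of 1.13 (SE 0.92), and Rpph1, the RNA of RNase P, had 1.02 (SE 0.78), and neither was called by edgeR or DESeq2. The part of library preparation in the histone difference was not tested. The summed markers of other cells varied between libraries. Among those that follow, only the non-neuroendocrine and lung alveolar sums did not overlap between groups. The 12 neuroendocrine markers, 11 of which were listed, summed to 5254, 4042 and 5951 CPM in PRMK libraries, against 6229, 3739 and 126.8 CPM in PRM libraries, so PRM library 6 stood far below the others. The non-neuroendocrine markers were 11 names for 9 genes, of which 5 were listed. Those 5 summed to 23.3 to 32.6 CPM in PRMK libraries, against 33.1 to 348.9 CPM in PRM libraries. Markers of epithelium (5 of 7 listed) summed to 568.7 to 3006 CPM in PRMK, against 68.1 to 2972 CPM in PRM. Markers of myeloid and lymphoid cells (5 of 8) summed to 406.3 to 611.7 CPM in PRMK, against 5.94 to 477.4 CPM in PRM, and those of fibroblasts (6 of 6) summed to 63.7 to 280.2 CPM in PRMK, against 2.58 to 333 CPM in PRM. Endothelial, red blood cell, lung alveolar and liver markers summed to 8.75 CPM or less in every library. The lung alveolar sums were 8.52 to 8.75 CPM in PRMK, against 0.445 to 7.06 CPM in PRM. The part of cell composition in the histone difference was not tested.

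The correlation of log2 CPM was 0.934 to 0.969 between PRMK libraries and 0.770 to 0.855 between PRM libraries, so the PRM libraries differed more among themselves. Total counts ran over 18819262 to 24123055 in PRMK, 12013253 to 19550439 in PRM, 18524493 to 22012962 in sgMeis2 and 21228986 to 24389041 in sgScramble libraries. In the sgMeis2 group, library 3 stood apart, with correlations of 0.967 to 0.970 to the other 5 libraries, and results that rest on it are given without it as well. Meis2 itself had 219, 223.8 and 136.4 CPM in sgMeis2 libraries, against 258.3, 226.5 and 233.2 CPM in sgScramble libraries, and was not called, so the targeted gene gives little check of the labels.

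The guide against Meis2 went with no called difference in histone genes. They summed to 250.9, 254.4 and 228.5 CPM in sgMeis2 libraries 1 to 3, against 310.2, 271.5 and 255.2 CPM in sgScramble libraries 1 to 3. Every sgMeis2 library lay below every sgScramble library, by a margin of under 1 CPM between sgMeis2 library 2 and sgScramble library 3. Without H2bc4 the groups overlapped, with sums of 173, 176.6 and 212.5 CPM in sgMeis2 libraries, against 223.1, 189.5 and 173.4 CPM in sgScramble libraries. The means were 244.6 ± 14.1 CPM in sgMeis2 and 279 ± 28.2 CPM in sgScramble (SD, n = 3 each), a log2 ratio of -0.19. Of 33 members tested, edgeR called 0 (0.0% of 16260 genes) and DESeq2 called 0 (0.0185% of genes higher and 0.117% lower). At an unadjusted edgeR p under 0.05, 4 members were lower, H1f4, H3c8, H4c9 and Hist1h2bp, where 2.48% of all genes were lower, and 0 were higher (2.2%). That count of 4 was 0, 1 and 2 without sgScramble library 1, 2 and 3, and 4, 4 and 3 without sgMeis2 library 1, 2 and 3. Over all genes, 403 of 16260 were lower with all libraries. Without sgScramble library 1, 2 and 3 these were 209 of 16592, 244 of 16564 and 357 of 16593. Without sgMeis2 library 1, 2 and 3 they were 402 of 16559, 501 of 16599 and 874 of 16565. The edgeR log2 fold change was above 0 for 4 of 33 members, H1f2, H2bc21, H4c8 and H4c12, against 50.8% of all genes tested.

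Of the 53 members with a count in these libraries, 10 had all sgMeis2 libraries below all sgScramble libraries (6.03% of all genes with a count), and 0 had all above (5.47%). The median log2 fold change of the 33 members tested was -0.37 with all libraries and -0.18 without sgMeis2 library 3, against 0.00 for all genes tested. The 10 were H1f3, H1f4, H2bc3, H2bc4, H2bc6, H2bc13, Hist1h2bp, H3c3, H3c8 and H4c9.

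sgMeis2 library 3 decided several of these values. H2bc4 had 77.9, 77.8 and 16 CPM in sgMeis2 libraries, against 87, 82.1 and 81.8 CPM in sgScramble libraries, so sgMeis2 libraries 1 and 2 lay just under the sgScramble libraries and library 3 far under them. Its log2 fold change was -0.55 (SE 0.50) with all libraries and -0.11 without sgMeis2 library 3. H2bc8 had 6.32, 7.04 and 0.803 CPM in sgMeis2 libraries, against 8.64, 7.2 and 6.85 CPM in sgScramble libraries, with overlap. Its log2 fold change was -0.67 (SE 0.58), and -0.18 without sgMeis2 library 3. H1f2 went the other way, with 45.1, 45 and 86.5 CPM in sgMeis2 libraries, against 70.5, 50.5 and 44.3 CPM in sgScramble libraries. Its log2 fold change was 0.09 (SE 0.29), and -0.29 without sgMeis2 library 3. H2bc21 was also highest in that library, with 50.5, 55.6 and 71.2 CPM in sgMeis2 libraries, against 54.7, 51.8 and 48.3 CPM in sgScramble libraries, and had a log2 fold change of 0.20 (SE 0.14), which was 0.039 (SE 0.068) without sgMeis2 library 3.

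H4c9 was the steadiest of these genes. It had 12.7, 12.1 and 12.8 CPM in sgMeis2 libraries, against 15.3, 14.6 and 15.4 CPM in sgScramble libraries. The groups did not overlap and were each narrow. The unadjusted edgeR p was 0.0264 and the adjusted p 0.754, at a log2 fold change of -0.27 (SE 0.10). H3c15 had 2.21, 2.47 and 3.43 CPM in sgMeis2 libraries, against 3.12, 3.08 and 2.56 CPM in sgScramble libraries, with overlap and a log2 fold change of -0.11 (SE 0.22), which was -0.32 without sgMeis2 library 3. H1f4 had 16, 11 and 6 counts in sgMeis2 libraries, against 32, 24 and 26 counts in sgScramble libraries, and H3c8 had 31, 48 and 27 counts in sgMeis2 libraries, against 77, 66 and 55 counts in sgScramble libraries. Both were without overlap. Their edgeR log2 fold changes were -1.13 for H1f4 and -0.75 for H3c8, with an adjusted p of 0.754 each.

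With the Meis2 guide, edgeR and DESeq2 called no member of the lists set beside the histone genes. Of the 22 genes of histone mRNA transcription and processing tested, 0 had an unadjusted edgeR p under 0.05 in either direction, and the median log2 fold change was 0.04. The same count was 0 of 27 for S phase genes (median -0.02), 0 of 20 for chaperones (median 0.12) and 0 of 12 for genes of growth arrest (median 0.07). Of 12 replication-independent histone genes, 1 was lower at an unadjusted p under 0.05, H1f0, with 994, 1015 and 840.9 CPM in sgMeis2 libraries, against 1571, 1203 and 1101 CPM in sgScramble libraries and without overlap. The neuroendocrine markers summed to 2998 to 3275 CPM in sgMeis2, against 3123 to 3220 CPM in sgScramble libraries. Epithelial markers summed to 160.8 to 180 CPM in sgMeis2, against 204 to 219.6 CPM in sgScramble libraries. Non-neuroendocrine markers summed to 38.5 to 41.62 CPM, against 47.06 to 55.65 CPM. Of these, 2 of 5 and 2 of 7 tested were lower at an unadjusted edgeR p under 0.05 (2.48% of all genes). Replication-independent histone sums were also lower without overlap (3729 to 3961 against 4153 to 4914 CPM). Sums of the processing genes (2245 to 2412 against 2207 to 2241 CPM) and chaperones (4915 to 6179 against 4900 to 4914 CPM) were higher without overlap. Fibroblast markers and those of myeloid and lymphoid cells summed to 5.62 CPM or less in every library. The part of these lists in the histone values was not tested.

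**Figure D3:**
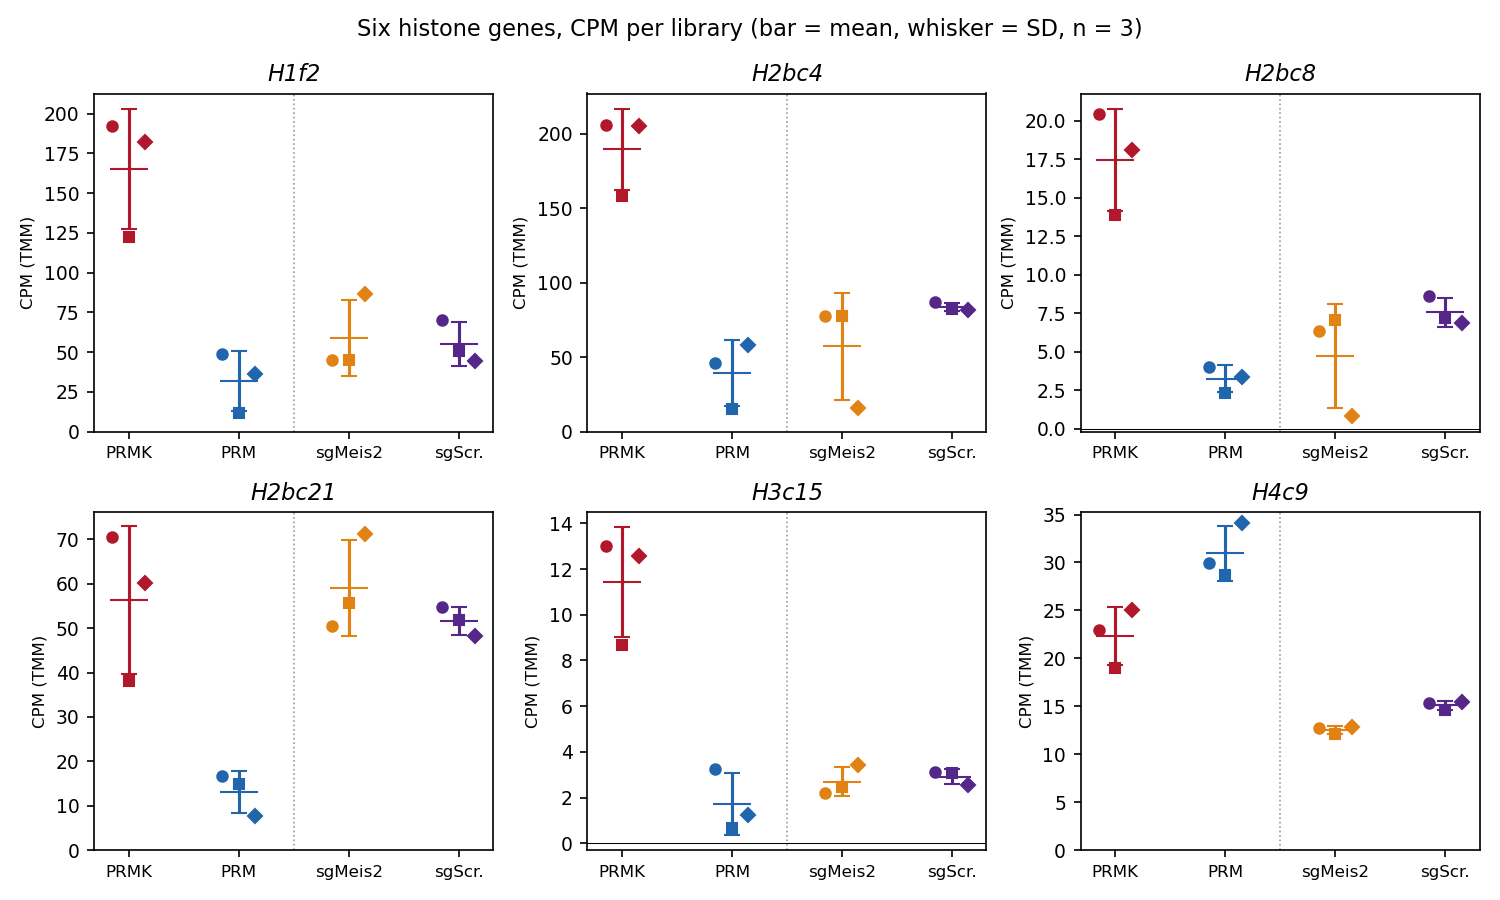
CPM per library of the 6 histone genes with a mean of at least 10 CPM in 1 or more of the 4 groups, with the mean (bar) and SD (whisker), n = 3 a group; PRMK and PRM are left and sgMeis2 and sgScramble right of the dotted line, from separately normalized tables. H4c9 is the gene with every PRMK point below every PRM point, and sgMeis2 library 3 (diamond) is far from libraries 1 and 2 for H1f2, H2bc4 and H2bc8.

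Set side by side, the summed level of sgScramble libraries (255.2 to 310.2 CPM), which carry the PRMK plasmids, lay between those of PRMK (407.7 to 596.9 CPM) and PRM (88.4 to 175.2 CPM). The tables were normalized separately and list different genes, the kind of sample may differ, and no test was made between them. In sgScramble libraries H4c9 was at 14.6 to 15.4 CPM, below both PRMK (19 to 25 CPM) and PRM (28.7 to 34.2 CPM).

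Levels of different genes were compared per length in the authors' TPM of the sgScramble libraries. H2bc4 was highest at 52.7 ± 2.41 TPM, followed by H1f2 at 16.4 ± 4.25 TPM (SD, n = 3 each). H4c9 at 9.64 ± 0.328, H2bc21 at 9.14 ± 0.659 and H2bc8 at 7.36 ± 1 TPM came next, and over single libraries H4c9 overlapped with H2bc21, and H2bc21 with H2bc8. H4c12 followed at 6.21 ± 0.216 TPM, with every library below those of H2bc8. H3c8 was the highest H3 gene at 3.24 ± 0.731 TPM. In sgMeis2 libraries H2bc4 was again highest by its mean, at 36 ± 22.4 TPM, but in sgMeis2 library 3 it had 10.2 TPM and lay below H1f2 (25.9 TPM) and H2bc21 (12.7 TPM). Class H2A was lowest per length: its highest gene, H2ac7, averaged 0.437 ± 0.312 TPM in sgMeis2 and 0.624 ± 0.18 TPM in sgScramble libraries (SD, n = 3 each), and 4 of its genes were at 0 in all 6 libraries (H2ac1, H2ac18, H2ac19 and H2ac21).

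The starts of nearly all histone genes carried the marks of active promoters in both genotypes. H3K4me3, the trimethyl mark of active starts, had a peak within 1000 bp of 54 of the 56 histone gene starts in both PRMK libraries (96.4%), against 43.0% of all 27025 starts. In PRM libraries it had a peak at 54 of 56 as well, against 43.2% of all starts. The pair without a peak was the same in every H3K4me3 library, H2ac1 and H2bc1, neighbouring genes known for histones of the testis. H3K4me2 also had peaks at 54 of 56 starts in both PRMK libraries and in both PRM libraries, against 47.8% of all starts in PRMK and 42.2% in PRM. Over whole gene spans, which also hold the 5 members without a start in the reference, H3K4me3 covered 59 of 61 members in PRMK and 59 of 61 in PRM. The shares of all 21883 gene spans were 59.4% in PRMK and 59.9% in PRM.

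Histone genes lie so close together that these starts shared peaks. The 54 marked starts lay under 23 and 24 H3K4me3 peaks in PRMK libraries 1 and 2, against 26 and 27 peaks in PRM libraries 1 and 2. Those peaks had median widths of 8335 and 7403 bp in PRMK, against 6422 and 5054 bp in PRM, while all peaks of the same lists had medians of 3405 and 3542 bp in PRMK, against 3233 and 2770 bp in PRM. Members are thus not separate sites, and widths depend on how each list was called. H3K4me3 also marked starts without reads: of the 8 members at 0 counts in all 6 sgMeis2 and sgScramble libraries, 7 had a peak in both PRMK and in both PRM libraries, and the other was H2ac1. Several of the 7, such as H2ac18 and H2ac19, or H3c13 and H3c14, are near-identical copies, and the sources used here do not say how reads that match several genes were counted.

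H3K4me1, the mark of enhancers that KMT2C places, was found at far fewer histone starts than H3K4me2 or H3K4me3. In lung PRMK libraries it had a peak at 3 of 56 starts in both (5.36%), against 10.7% of all starts, and in lung PRM libraries at 11 (19.6%), against 11.7% of all starts. The count rests on PRMK library 2, which had 3, while PRMK library 1 had 22. PRM libraries 1 and 2 had 20 and 13, so PRMK library 1 was above both and PRMK library 2 below both. The shares of all starts stood in the same order. They were 21.3% and 12.5% in PRMK libraries 1 and 2, against 15.5% and 13.3% in PRM libraries 1 and 2. In liver PRM samples, 9 starts (16.1%) had a peak in both libraries, against 11.5% of all starts.

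Peaks in the KMT2C lists lay at 54 of 56 histone starts in both lung PRMK libraries, against 41.2% of all starts, and at 51 (91.1%) in both lung PRM libraries, against 16.6% of all starts. In liver PRM the count was 54, against 37.6% of all starts. The PRMK lists, from cells labelled with the Kmt2c guide, held 187682 and 134561 peaks. The lung PRM lists held 9949 and 16681, and the liver PRM lists 65201 and 113129. The PRMK peaks are thus no measure of bound KMT2C without a control. The only control sample, an IgG sample of lung PRM, was not used here. In lung PRM, H3c4 had no KMT2C peak in either library, and H2ac7 and H2bc7 had one in library 2 alone.

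Open chromatin could be read in lung PRM tumours, where 45 of 56 histone starts (80.4%) had an ATAC peak in both libraries, against 25.1% of all starts. PRMK ATAC library 1 held 593 peaks in all and none at a histone start, so no start could have a peak in both. PRMK library 2 alone had 46, against 33.1% of all starts. Lung PRM libraries 1 and 2 had 48 and 46, against 35.8% and 28.8% of all starts. The liver PRM lists held 345 and 141 peaks, with median widths of 119850 and 7470 bp. They marked 2 and 0 histone starts, against 4.59% and 2.13% of all starts. In liver PRM 0.174% of all starts had a peak in both libraries, and in lung PRMK 1.35%.

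**Figure D4:**
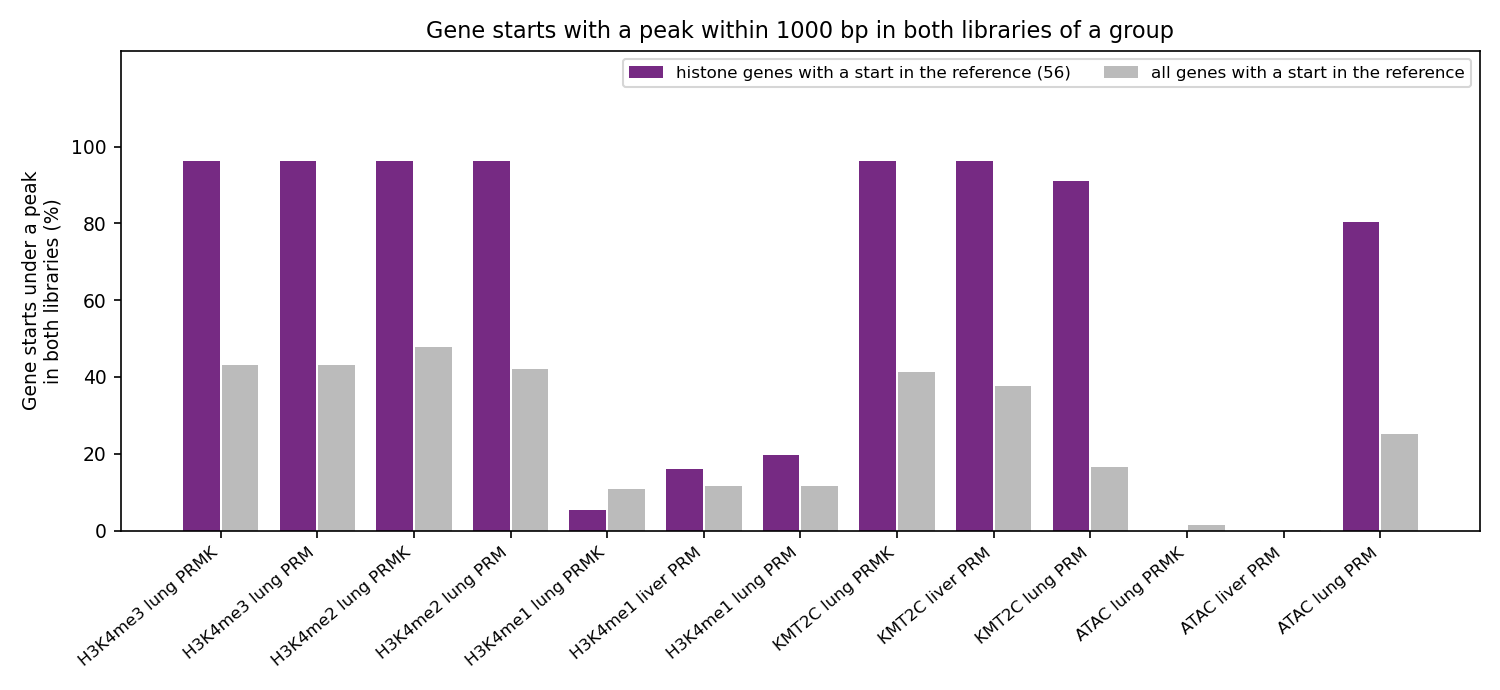
Percent of gene starts with a peak within 1000 bp in both libraries of a group, for the 56 histone genes with a start (purple) and for all 27025 starts (grey). Histone starts reach 91.1% to 96.4% for H3K4me3, H3K4me2 and KMT2C, lie at 5.36% to 19.6% for H3K4me1, and are at 0 for ATAC in lung PRMK and liver PRM, as against 1.35% and 0.174% of all starts.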

How the data were processed

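RNA was measured in 12 libraries and peaks in 2 libraries for each of 13 groups. For RNA the submitters' processing notes name STAR 2.6.0a and GRCm38. The authors deposited raw counts per gene, TPM, and their own log2 fold changes with adjusted p-values, which were read but not used for calls. ATAC reads were aligned with Bowtie2 2.2.1, and CUT&Tag peaks were called with SEACR on mm10, per the submitters' processing notes. The deposited ATAC lists carry a caller's score and the CUT&Tag lists a signal per peak. The ATAC caller, the gene counter and the controls used in peak calling are not given in the sources used here. Whole-genome bisulfite, single-cell and S-adenosylmethionine data were not used here. In the table of PRMK and PRM libraries, 6 per-sample columns were not used.

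The members and gene lists were chosen with earlier results of these data known. Counts were fitted in R 4.3.3 with edgeR 4.0.16 (quasi-likelihood test, TMM, default filter on low counts), over all genes of each table, with Benjamini-Hochberg adjustment and a threshold of 0.05. DESeq2 1.42.0 and the edgeR likelihood ratio test were alternatives. Fold changes are PRMK over PRM and sgMeis2 over sgScramble. The step was tested on simulated data. CPM are scaled by TMM within a table. Members with a group mean of at least 10 CPM are described in full; other named members were chosen after their values were seen. A start had a peak when at least 1 bp of one lay within 1000 bp of it in both libraries, over RefSeq starts of GRCm38.p6, the assembly that mm10 represents. Motifs were searched on both strands in the 250 bases before each start. Peaks, motifs and plots used Python 3.11.15, numpy 2.4.6, pandas 2.3.3 and matplotlib 3.10.9. The depth of the peak libraries is unknown. PRM libraries are numbered 4 to 6 as in the table's columns, and their titles number them otherwise.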

Additional observations from a re-analysis of the deposited data

How the results depend on the processing

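For PRMK over PRM, the number of histone genes called was 0 by the edgeR quasi-likelihood test, 10 by DESeq2 and 6 by the likelihood ratio test. Leaving out each replicate gave 0 to 3 calls by edgeR. By DESeq2 it gave 2, 5 and 2 calls without PRMK replicate 1, 2 and 3, and 15, 9 and 7 without PRM replicate 4, 5 and 6. The summed level kept its direction under all 11 alternatives. Of 84 alternative values of the named genes, 53 kept their side of the threshold and 31 were newly called, all in the same direction. No paired analysis was possible because PRMK and PRM libraries share no number in the table's columns and a single one, 3, in the titles.

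For sgMeis2 over sgScramble, 0 histone genes were called under all 17 alternatives. Same-numbered libraries did not deviate together (correlations of -0.007 to 0.024). With the number as a replicate block 0 were called. In that fit 5 were lower at an unadjusted edgeR p under 0.05, where 374 of all 16260 genes were lower. The log2 ratio of the sum was -0.060 without H2bc4 and -0.34 without the 5 most abundant genes. The log2 fold change of H1f2 ran over -0.29 to 0.31 with replicates left out. It turned to -0.29 by edgeR and DESeq2 without sgMeis2 replicate 3, and to -0.034 by edgeR and -0.033 by DESeq2 without sgScramble replicate 3. That of H3c15 ran over -0.32 to 0.017 and turned to 0.017 by edgeR and 0.015 by DESeq2 without sgMeis2 replicate 1. The cause was not tested.

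H3K4me1 and ATAC counts moved by over 1.5 times. For H3K4me1 with 500 bp to either side, liver PRM had 2 of 56 starts (3.57%), against 8.92% of all starts. With stricter peaks, lung PRMK had 1 (1.79%) and lung PRM 6 (10.7%), against 6.4% and 7.23% of all starts. Over gene spans these were 10 (16.4%) and 17 (27.9%) of 61 members, against 33.1% and 31.2% of all 21883 genes. Single libraries gave 3 to 22 in lung PRMK, 13 to 20 in lung PRM and 10 to 24 in liver PRM. Their shares of all starts were 12.5% to 21.3%, 13.3% to 15.5% and 12.1% to 20.3%. ATAC counts of single libraries were 0 to 46 in lung PRMK and 0 to 2 in liver PRM. Their shares of all starts were 1.37% to 33.1% and 2.13% to 4.59%. Counts for H3K4me2, H3K4me3, KMT2C and lung PRM ATAC stayed within 1.5 times. Gene spans, sums without the most abundant genes and DESeq2 with replicates left out were added after seeing the data.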
